A study of Mus musculus with 4 samples.

Results

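The glycolytic pathway, its lactate and pyruvate branches and its oxygen-sensing control were followed as a group of 38 genes, out of 20207 genes listed for each library. The members were chosen by gene symbol, with earlier results of these data known. They comprise the isozymes of each step, the glucose and lactate carriers, the enzymes that set flux at phosphofructokinase and at pyruvate dehydrogenase, HIF-1α with its regulators, and Gm5506, a copy of the enolase gene Eno1. All 38 were listed, and 36 had enough reads to be tested. The exceptions were Hk3 and Egln3.

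RNA had been sequenced from adipocyte precursor cells, the stromal progenitors of fat cells, sorted fresh from adipose tissue of young C57BL/6 mice by the surface profile Sca1+ CD45- CD31-. The study compared 2 libraries labelled Per3 KO with 2 libraries from wild-type (WT) littermates, all collected at ZT2, early in the light phase. Per3 encodes a period protein of the circadian clock. The labels do not say how the allele was made, which fat depot was used, or whether replicates came from separate mice, so the spread behind each p-value may be technical.

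Glycolysis splits glucose into pyruvate in the cytosol, and each of its steps is run by a small family of isozymes that differ between tissues. Pyruvate is either reduced to lactate by lactate dehydrogenase and exported, or passed to mitochondria through pyruvate dehydrogenase, which PDH kinases switch off. HIF-1α raises transcription of many of these genes when oxygen is low, and prolyl hydroxylases of the EGLN family mark it for destruction when oxygen is present. In fat tissue the pathway also supplies glycerol phosphate, the backbone of stored triglyceride.

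Libraries held between 27950724 and 64964300 gene reads, the lowest total being that of WT 2. Per3 itself was not lower under the KO label. It had 193 reads in Per3 KO 1 and 768 reads in Per3 KO 2, against 121 in WT 1 and 170 in WT 2, and its log2 fold change was 0.54 ± 0.83 (SE), or -0.17 without Per3 KO 2. The count spans the whole gene and does not check a partial deletion, so the libraries are called KO-labelled and each difference is KO-labelled over WT. Ly6a, which encodes Sca1 of the gate, was at 3765 and 2132 CPM in Per3 KO 1 and 2 and at 2596 and 14268 CPM in WT 1 and 2. Other precursor markers ranged widely, with Dlk1 at 0.258 to 0.652 CPM and Col1a1 at 21970 to 44866 CPM. Pecam1, which encodes CD31, was at 6.73 and 5.18 CPM in KO-labelled libraries and at 2.06 and 8.85 CPM in WT libraries. Alb, a hepatocyte transcript, was at 0.0241 and 416 CPM against 85.8 and 7.86 CPM. The purity of the sort was not tested.

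Promoters of 4 members are shown because they mark the types of gene that the results turn on. Ldha and Pgk1 are hypoxia-inducible genes of the main pathway, Eno1 is the gene whose copy separated the groups, and Pgam2 is the muscle isozyme that was lower in KO-labelled libraries. Each sequence is the 250 bases before the first listed RefSeq start (GRCm38.p6), read 5′ to 3′ on the strand of the gene. Capitals mark matches on either strand to the clock and MYC:MAX E-box CACGTG, to the hypoxia response cores ACGTG or GCGTG, or to the MEF2 site of muscle genes. Every CACGTG also contains ACGTG on both strands.
Ldha, chr7:46845554-46845803, plus strand: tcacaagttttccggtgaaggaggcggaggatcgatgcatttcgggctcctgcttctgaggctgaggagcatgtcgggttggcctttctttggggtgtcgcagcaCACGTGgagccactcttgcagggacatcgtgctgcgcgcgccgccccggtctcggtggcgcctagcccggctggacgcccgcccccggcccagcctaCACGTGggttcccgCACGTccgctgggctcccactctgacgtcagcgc
Pgk1, chrX:106186850-106187099, plus strand: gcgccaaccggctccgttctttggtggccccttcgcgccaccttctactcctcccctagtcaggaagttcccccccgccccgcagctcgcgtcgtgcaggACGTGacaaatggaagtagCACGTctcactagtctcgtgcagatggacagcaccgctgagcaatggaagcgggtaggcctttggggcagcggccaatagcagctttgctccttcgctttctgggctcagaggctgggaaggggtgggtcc
Eno1, chr4:150236458-150236707, plus strand: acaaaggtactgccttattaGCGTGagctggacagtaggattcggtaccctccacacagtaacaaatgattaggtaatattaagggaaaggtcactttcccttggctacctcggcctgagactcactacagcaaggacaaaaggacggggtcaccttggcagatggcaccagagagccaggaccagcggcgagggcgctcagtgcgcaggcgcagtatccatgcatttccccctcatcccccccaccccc
Pgam2, chr11:5803797-5804046, minus strand: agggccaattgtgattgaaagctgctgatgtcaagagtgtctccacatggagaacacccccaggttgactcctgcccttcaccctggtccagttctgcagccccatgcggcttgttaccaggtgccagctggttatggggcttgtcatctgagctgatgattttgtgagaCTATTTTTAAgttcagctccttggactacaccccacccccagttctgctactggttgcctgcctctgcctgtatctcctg

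The Ldha window held 2 E-boxes and 5 ACGTG matches, counted on both strands. The Pgk1 window held 2 ACGTG matches, the Eno1 window 1 GCGTG match, and the Pgam2 window none of these but 1 MEF2 match. Among 36 members with a window, 28 (77.8%) held ACGTG or GCGTG, against 38.6% of all 27018 windows and 43.8% of protein-coding ones. E-boxes were found in 7 members (19.4%), against 6.05% of all windows. Bnip3, Hif1a, Ldha, Pdk2, Pfkfb2, Pfkm and Slc16a1 carried them. The members' windows were also richer in G and C, with a median of 61.6% against 52.0% for all windows, and both cores and the E-box contain CG. These matches describe the letters and not binding. Gm5506 and Slc2a3 had no window in the table.

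Ordered by mean RPKM, a level per transcript length, the leading members were Aldoa, Ldha, Pkm2, Gapdh and Hk2. Aldoa, the aldolase of muscle and most other tissues, stood at 384 and 294 RPKM in Per3 KO 1 and 2 and at 351 and 182 RPKM in WT 1 and 2. It ranked first among the members in every library. Ldha, which makes lactate from pyruvate, stood at 299 and 219 RPKM in KO-labelled libraries and at 252 and 84.7 RPKM in WT libraries, and Pkm2, the pyruvate kinase gene, at 162 and 159 RPKM against 144 and 45.3 RPKM. The lowest members were Egln3, Hk3 and Aldoc, with Aldoc reaching 0.230 RPKM in Per3 KO 2. The spread within a group was often wider than the gap between neighbours in this order, as for Gapdh (101 ± 36.6 RPKM in KO-labelled and 81.5 ± 13.2 RPKM in WT libraries, SD, n = 2 each) and Hk2 (83.1 ± 9.46 and 49.7 ± 37.9 RPKM).

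**Figure D1:**
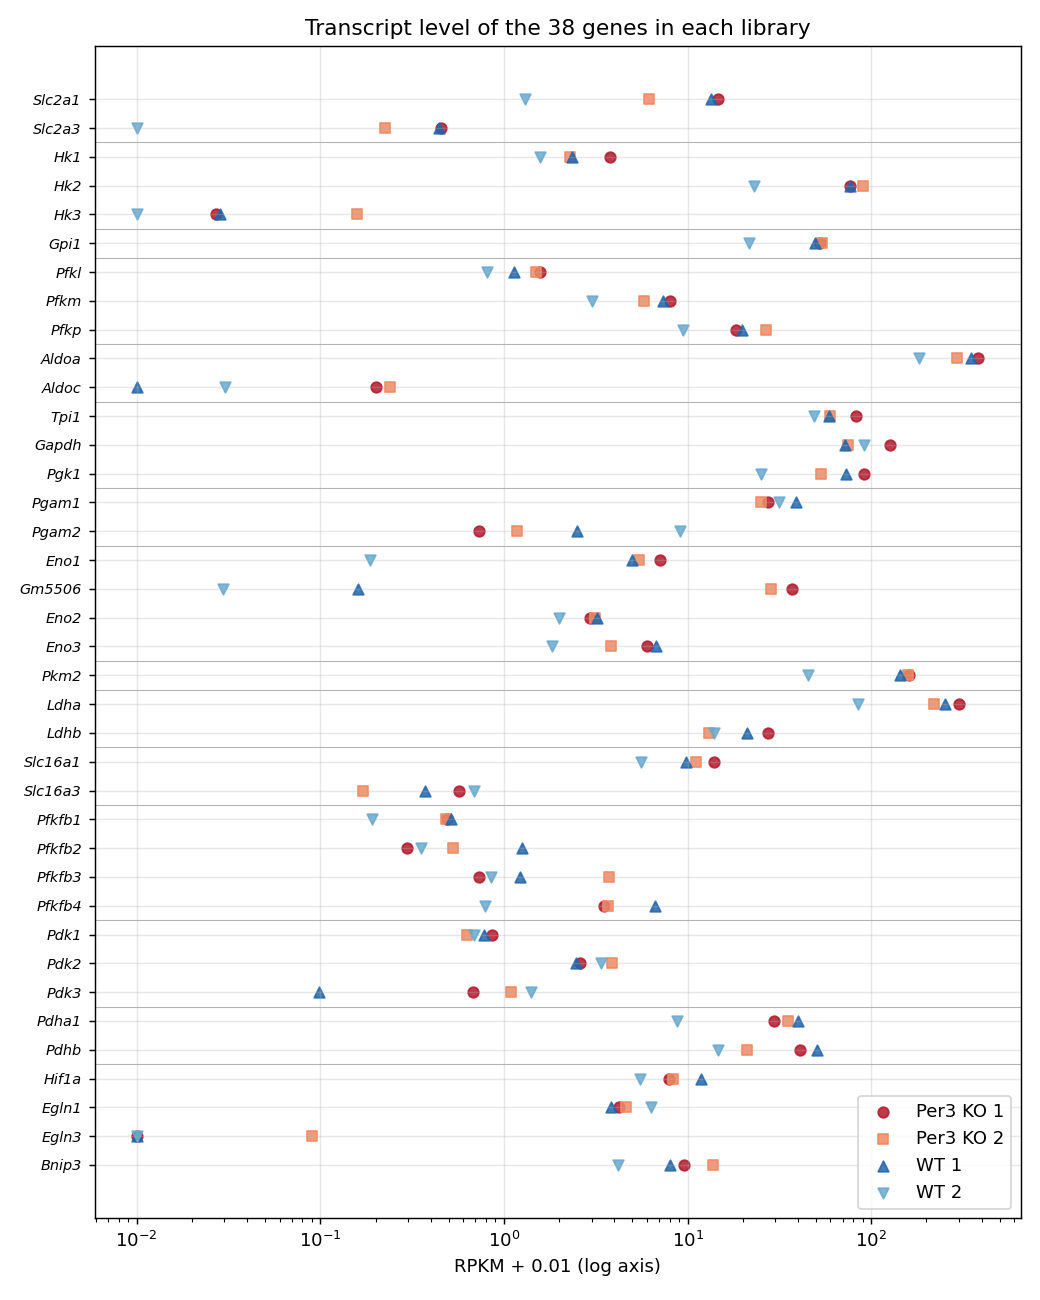
RPKM of each gene in Per3 KO 1, Per3 KO 2, WT 1 and WT 2, on a log axis after adding 0.01, with thin lines between enzyme families. WT 2 lies to the left of the other libraries for most enzymes of the main pathway, and Gm5506 has the widest gap between KO-labelled and WT libraries.

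The clearest contrast lay at enolase, which turns 2-phosphoglycerate into phosphoenolpyruvate. Gm5506, listed on mm9 chromosome 18 (48204989 to 48208037) and named Eno1b in RefSeq, had 4782 reads in Per3 KO 1 and 6181 in Per3 KO 2, against 17.92 in WT 1 and 1.996 in WT 2. These are 115 and 84.8 CPM in KO-labelled libraries and 0.469 and 0.0860 CPM in WT libraries, so the groups lay far apart. The log2 fold change was 8.39 ± 0.90 (SE). The edgeR quasi-likelihood test with Benjamini-Hochberg adjustment over 12494 genes gave an adjusted p of 0.293, the smallest of all genes and still above the threshold of 0.05. In 12 of 14 alternative fits the adjusted p passed, with a range from 4.57e-26 to 0.289 and log2 fold changes from 4.95 to 10.14, the higher coming from leaving out WT 1.

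Eno1, the gene of the enolase found in most tissues (mm9 chromosome 4, 149611306 to 149622982), had 922 and 1180 reads in Per3 KO 1 and 2 and 598 and 18 reads in WT 1 and 2. That is 22.3 and 16.2 CPM in KO-labelled libraries and 15.6 and 0.774 CPM in WT libraries, with Per3 KO 2 barely above WT 1. The log2 fold change of 1.23 ± 1.14 (SE) was 4.63 without WT 1 and 0.30 without WT 2. Eno1 ends 755 kb before Per3 begins on the same chromosome.

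Reads of Eno1 and Gm5506 are hard to tell apart. Over 1736 aligned bases the GENCODE transcripts (release M21, GRCm38) of Eno1 and Eno1b were 99.5% identical. Of all windows of 50 bases in the Eno1 transcript, 70.5% were found unchanged in Eno1b, and 58.6% of windows of 100 bases were. No window of either length was shared between these copies and Eno2 or Eno3. The tables also list Gm4735, a processed pseudogene 99.6% identical to Eno1 over 1302 bases, but place it on chromosome 4 at 149611413 to 149622981, within the span of Eno1, with 0 reads in all 4 libraries. How reads that fit both rows were counted is not given in the sources used here, which leaves the levels of Eno1 and of Gm5506 each uncertain.

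The sum of both copies does not depend on which of them received a read, but it would miss reads left out of both rows. It was 138 and 101 CPM in Per3 KO 1 and 2, against 16.1 and 0.860 CPM in WT 1 and 2, and the groups did not overlap. The log2 fold change of the sum was 3.81 ± 1.17 (SE), with an unadjusted p of 0.0131 and an edgeR adjusted p of 1.00. It was 7.12 without WT 1, where the edgeR adjusted p was 0.0323, and 2.90 without WT 2. In total 4 of 14 alternatives passed, with adjusted p from 6.67e-05 to 1.00.

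**Figure D2:**
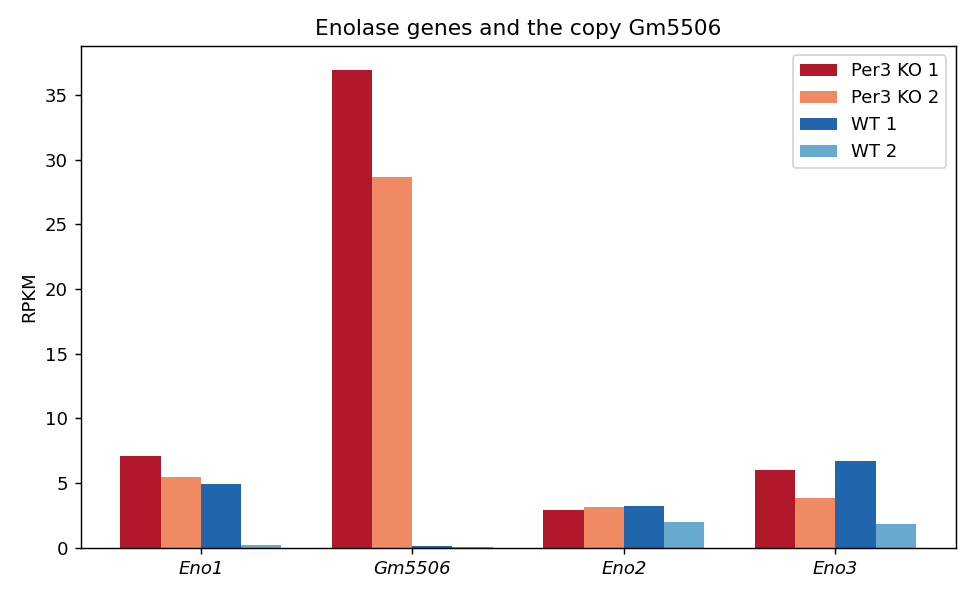
RPKM of Eno1, Gm5506, Eno2 and Eno3 in each library, from the authors' tables. Gm5506 reaches 36.9 and 28.6 RPKM in Per3 KO 1 and 2 and is at 0.150 and 0.0197 RPKM in WT 1 and 2, while Eno2 and Eno3 overlap between groups.

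Eno2, the neuronal enolase, was at 13.7 and 13.8 CPM in KO-labelled libraries and at 14.9 and 12.98 CPM in WT libraries. Eno3, the muscle enolase, was at 15.4 and 9.26 CPM in KO-labelled libraries and at 17.1 and 6.49 CPM in WT libraries. Neither separated the groups, with log2 fold changes of -0.02 ± 0.56 and 0.06 ± 0.71 (SE). The 4 enolase rows together made 53.0 and 41.0 RPKM in Per3 KO 1 and 2, against 15.0 and 4.02 RPKM in WT 1 and 2. Set against Pkm2, the next step, the enolase total was 32.8% and 25.7% of its RPKM in KO-labelled libraries and 10.5% and 8.87% in WT libraries. Within a library such a ratio is free of library scaling. Pkm2 itself was lower in WT 2, at 45.3 RPKM against 144 RPKM in WT 1. Against the summed RPKM of Pgam1 and Pgam2, the step before, the enolase total was 1.87 and 1.55 times in Per3 KO 1 and 2. It was 0.361 and 0.0988 times in WT 1 and 2. Reads left out of both the Eno1 and Gm5506 rows would be missing from these totals. Eno2 and Eno3 alone made 5.54% and 4.36% of the Pkm2 level in KO-labelled libraries and 6.91% and 8.44% in WT libraries.

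Phosphoglycerate mutase, the step before enolase, held both of the members whose KO-labelled libraries lay below both WT libraries. Pgam2, the muscle mutase (mm9 chromosome 11, 5701640 to 5703799), was at 1.16 and 1.77 CPM in Per3 KO 1 and 2, against 4.02 and 20.5 CPM in WT 1 and 2. Its log2 fold change was -3.06 ± 0.99 (SE), with an unadjusted p of 0.0167 and an edgeR adjusted p of 1.00, and it was -1.45 without WT 2. Pgam1, the mutase of most tissues, was at 89.4 and 77.7 CPM in KO-labelled libraries and at 127 and 143 CPM in WT libraries, with a log2 fold change of -0.69 ± 0.49 (SE). The groups did not overlap for either gene.

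Of 9 skeletal muscle markers tested, edgeR called 0, and 8 had negative log2 fold changes (median -0.69). Both KO-labelled libraries were below both WT libraries for 4 of them, against 11.5% of all genes tested, and above for 0, against 14.6%. Tnnc2, a fast-muscle troponin, was at 4.47 and 5.46 CPM in KO-labelled libraries and at 19.2 and 64.3 CPM in WT libraries, and Tnni2 was at 1.06 and 0.398 CPM against 2.09 and 9.24 CPM. The summed level of the 12 markers listed was 34.3 and 27.1 CPM in KO-labelled libraries and 64.3 and 103 CPM in WT libraries. Acta1, the skeletal actin, was at 8.59 and 7.82 CPM against 19.8 and 6.66 CPM, and Ttn, the titin gene, had a positive log2 fold change of 0.71, so the markers did not all rank the libraries as Pgam2 did. The part of muscle transcripts in the Pgam2 difference was not tested, and fewer cells of a type and less RNA per cell cannot be told apart in bulk samples.

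Glucose carriers and hexokinases had differences that rested on single libraries. Slc2a1, the basal glucose carrier GLUT1, was at 66.6 and 26.7 CPM in Per3 KO 1 and 2, against 61.4 and 8.17 CPM in WT 1 and 2. WT 1 lay between the KO-labelled libraries, and the log2 fold change of 0.42 ± 0.90 (SE) was -0.40 without WT 2 and -0.38 without Per3 KO 1. Slc2a3, the high-affinity GLUT3, had 122 and 98 reads in KO-labelled libraries and 110 and 0 in WT libraries, and its log2 fold change of 0.57 ± 2.06 (SE) was negative without Per3 KO 1 or without WT 2. Hk2, the inducible hexokinase, was at 747 and 832 CPM in KO-labelled libraries and at 747 and 311 CPM in WT libraries. Per3 KO 1 and WT 1 were thus level, and the log2 fold change of 0.58 ± 0.67 (SE) shrank to 0.09 without WT 2. Hk1, the housekeeping hexokinase, was at 27.9 and 15.9 CPM against 17.1 and 15.9 CPM. The log2 fold change of 0.41 ± 0.56 (SE) for Hk1 was -0.074 without Per3 KO 1 and 0.36 without WT 2. Hk3, a hexokinase of myeloid cells, had 3.965 and 57.9 reads in KO-labelled libraries and 3.98 and 0 in WT libraries. Ptprc, which encodes the leukocyte antigen CD45, had 4 and 50 reads in KO-labelled libraries and 0 and 5 in WT libraries. The leukocyte markers did not rank the libraries alike. Of 9 tested, edgeR called 0, and 2 had positive and 7 negative log2 fold changes (median -1.20). Both KO-labelled libraries were above both WT libraries for 2, against 14.6% of all genes tested, and below for 3, against 11.5%. Cd52 had 0 reads in both KO-labelled libraries and 28 and 126 in WT libraries, and S100a8 had 0 against 10 and 35. Cd74 was higher, at 11.2 and 7.38 CPM against 3.08 and 4.73 CPM. Lyz2 had 327 and 0 reads in KO-labelled libraries and 25.99 and 184 in WT libraries. The 14 leukocyte markers listed summed to 45.1 and 28.9 CPM in KO-labelled libraries and to 21.8 and 66.4 CPM in WT libraries. The part of leukocyte transcripts in the Hk3 values was not tested.

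In the upper pathway, Gpi1, the glucose phosphate isomerase, was at 266 and 258 CPM in KO-labelled libraries and at 249 and 152 CPM in WT libraries, a log2 fold change of 0.38 ± 0.55 (SE) that was 0.07 without WT 2. Pfkl, the liver-type phosphofructokinase, was at 10.3 and 9.29 CPM against 7.41 and 7.31 CPM. The gap was small, and the log2 fold change of 0.41 ± 0.65 (SE) stayed between 0.32 and 0.48 with any library left out. The main isozyme, Pfkp of platelets and many other cells, was at 131 and 180 CPM in KO-labelled libraries and at 139 and 93.2 CPM in WT libraries, and Pfkm of muscle at 40.3 and 27.4 CPM against 36.5 and 20.8 CPM. Both overlapped between groups.

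Aldoa overlapped, at 979 and 710 CPM in KO-labelled libraries and at 894 and 647 CPM in WT libraries. Aldoc, the brain aldolase, had 24 and 48 reads in KO-labelled libraries and 0 and 2 reads in WT libraries. Its log2 fold change was 3.87 ± 2.55 (SE), with an unadjusted p of 0.171 and an edgeR adjusted p of 1.00, and it ran from 2.81 without WT 1 to 7.98 without WT 2. Summed over libraries its level was 19.4 times higher in KO-labelled ones, with an exact 95% interval from 5.18 to 163 for counting error only. The transcript was still at most 0.0783% of the aldolase RPKM in any library.

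The triose phosphate steps did not separate the groups. Tpi1, the triose phosphate isomerase, was at 235 and 160 CPM in KO-labelled libraries and at 166 and 194 CPM in WT libraries, with a log2 fold change of 0.13 ± 0.53 (SE). Gapdh, often used as a reference gene, was at 276 and 155 CPM against 158 and 276 CPM, with a log2 fold change of -0.01 ± 0.60 (SE). Pgk1, which makes ATP at the next step, was at 292 and 160 CPM against 233 and 112 CPM, with a log2 fold change of 0.39 ± 0.62 (SE).

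At the end of the pathway, Pkm2 was at 629 and 587 CPM in KO-labelled libraries and at 557 and 245 CPM in WT libraries. The groups did not overlap, but the log2 fold change of 0.60 ± 0.64 (SE) was 0.13 without WT 2. Ldha was at 837 and 581 CPM against 703 and 329 CPM, with a log2 fold change of 0.46 ± 0.66 (SE) that was 0.02 without WT 2. Ldhb, the subunit that favours pyruvate formation, was at 63.0 and 28.5 CPM against 47.9 and 44.3 CPM. Slc16a1, the lactate and pyruvate carrier MCT1, was at 109 and 83.2 CPM in KO-labelled libraries and at 76.8 and 60.5 CPM in WT libraries. Its log2 fold change of 0.49 ± 0.49 (SE) stayed between 0.26 and 0.67 with any library left out. Slc16a3, the hypoxia-induced lactate exporter MCT4, was at 2.37 and 0.645 CPM against 1.54 and 3.997 CPM.

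The PFKFB enzymes make and break fructose 2,6-bisphosphate, an activator of phosphofructokinase. Pfkfb4, the leading form by mean RPKM, was at 20.9 and 20.8 CPM in KO-labelled libraries and at 39.6 and 6.45 CPM in WT libraries, which lay on either side of them. Pfkfb3, the inducible form, was at 6.40 and 31.1 CPM against 10.7 and 10.4 CPM, so Per3 KO 2 alone was high, and the log2 fold change of 0.83 ± 0.80 (SE) turned to -0.72 without it. Pfkfb2 was at 3.72 and 4.05 CPM against 8.14 and 3.95 CPM. Its RPKM cannot be set beside its counts across libraries, since its listed span differed between tables. Its reads per RPKM, taken relative to the median of that ratio over all genes in the library, differed up to 1.98 times between libraries. For the other members this relative ratio stayed within 1.04 times. Pfkfb1 of liver and muscle was at 1.47 and 1.37 CPM against 1.54 and 0.774 CPM.

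At the mitochondrial branch, the PDH kinases overlapped throughout. Pdk2, the leading form, was at 10.4 and 14.7 CPM in KO-labelled libraries and at 9.81 and 18.8 CPM in WT libraries, and the hypoxia-induced Pdk1 was at 7.72 and 5.38 CPM against 6.96 and 8.64 CPM. Pdk3 was at 2.37 and 3.66 CPM against 0.313 and 6.88 CPM, so the WT libraries spanned the KO-labelled ones. Pdha1, the catalytic subunit of pyruvate dehydrogenase, was at 145 and 164 CPM against 196 and 59.99 CPM, and Pdhb, its partner, at 108 and 52.5 CPM against 133 and 53.8 CPM.

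In the oxygen-sensing branch Bnip3 separated the groups. This HIF target promotes removal of mitochondria and was at 29.7 and 40.6 CPM in KO-labelled libraries and at 24.9 and 18.1 CPM in WT libraries. Its log2 fold change was 0.71 ± 0.51 (SE), between 0.47 and 0.97 with any library left out, and the edgeR adjusted p was 1.00. Hif1a, which encodes the oxygen-regulated subunit, was at 66.6 CPM in each KO-labelled library and at 99.2 and 64.8 CPM in WT libraries. Egln1, the main HIF prolyl hydroxylase, was at 26.5 and 27.2 CPM against 23.8 and 55.1 CPM. Egln3, itself hypoxia-induced, had 0 and 26 reads in KO-labelled libraries and 0 in both WT libraries.

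**Figure D3:**
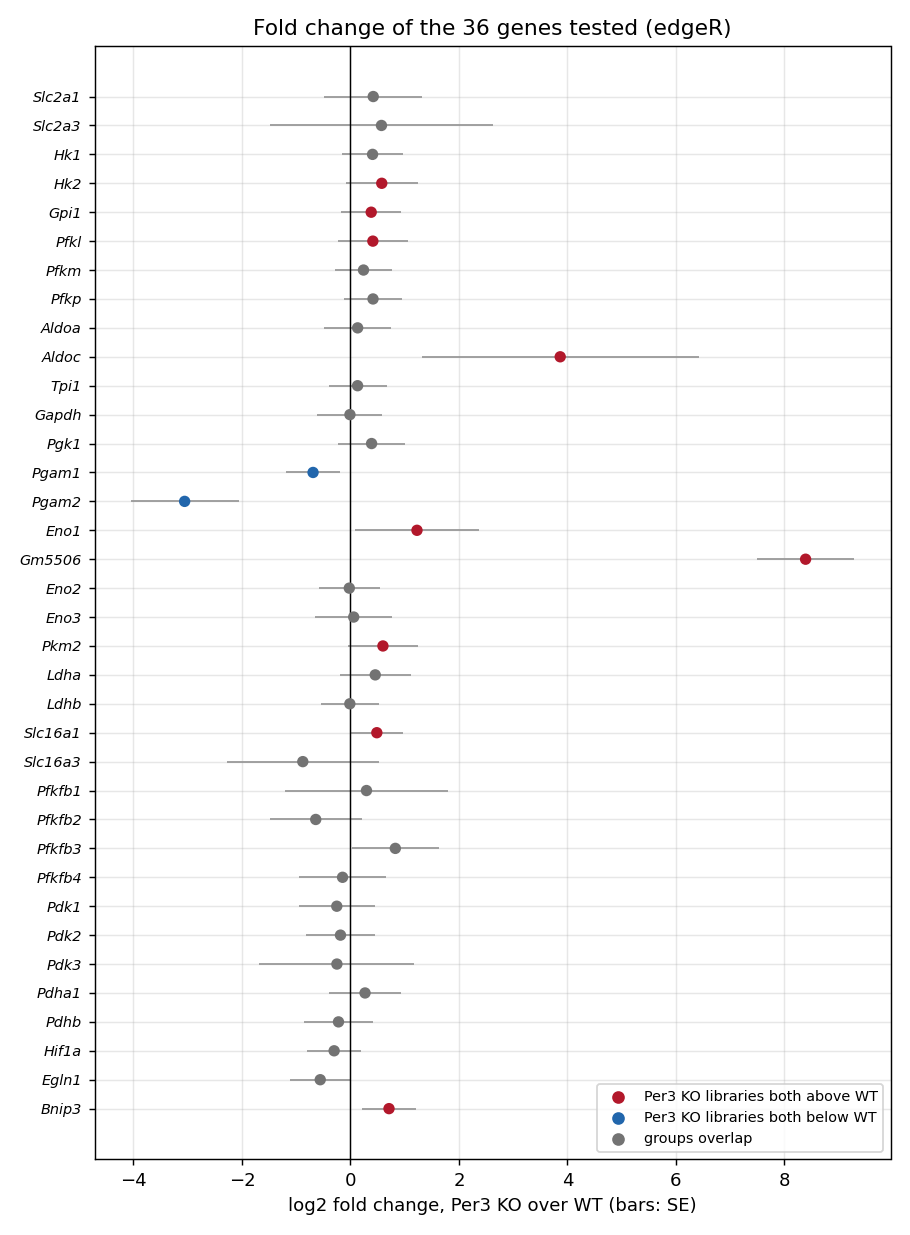
Log2 fold change of KO-labelled over WT libraries for the 36 tested genes, with bars for the standard error (edgeR, 2 libraries per group). Gm5506 stands at 8.39 and Pgam2 at -3.06, and the genes whose groups overlap lie between -0.88 and 0.83.

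Over the whole group, edgeR called 0 of 36 genes tested at an adjusted p under 0.05, against 0.0% of 12494 genes in all. At an unadjusted p under 0.05 there were 2 members, Gm5506 and Pgam2, where 2.06% of all genes reached it. DESeq2 and limma on log2(RPKM + 0.5) each called 1 member, Gm5506, against 0.112% and 0.0121% of all genes they tested. For 9 members (25.0%) the lower KO-labelled library exceeded the higher WT library, against 14.6% of all genes tested. They were Hk2, Gpi1, Pfkl, Aldoc, Eno1, Gm5506, Pkm2, Slc16a1 and Bnip3. Hk2 is counted on a near tie, 747.0 CPM in Per3 KO 1 against 746.7 CPM in WT 1, and overlapped in RPKM, at 76.43 in Per3 KO 1 against 76.49 in WT 1. By RPKM the count was also 9, with Tpi1 in place of Hk2. Both KO-labelled values were under either WT value for Pgam1 and Pgam2 (5.56%), against 11.5% of all genes tested. The groups overlapped for the other 25, whose log2 fold changes ran from -0.88 for Slc16a3 to 0.83 for Pfkfb3.

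Log2 fold changes were positive for 22 members and negative for 14, with a median of 0.25, beside a median of 0.01 over all genes tested. This median was 0.04 without WT 2 and 0.72 without WT 1, and turned to -0.05 without Per3 KO 1. Of the 36, 20 changed sign when some library was left out. WT 2 was the lowest library for 21 members (58.3%), against 35.0% of all genes tested. The members' median deviation from their own mean was 0.28 in Per3 KO 1, 0.0009 in Per3 KO 2, 0.13 in WT 1 and -0.41 in WT 2 on the log2 scale. Over all genes tested it was 0.03, 0.06, 0.04 and -0.06 in the same libraries. WT 1 thus lay between the KO-labelled libraries, and WT 2 stood apart from all of them.

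**Figure D4:**
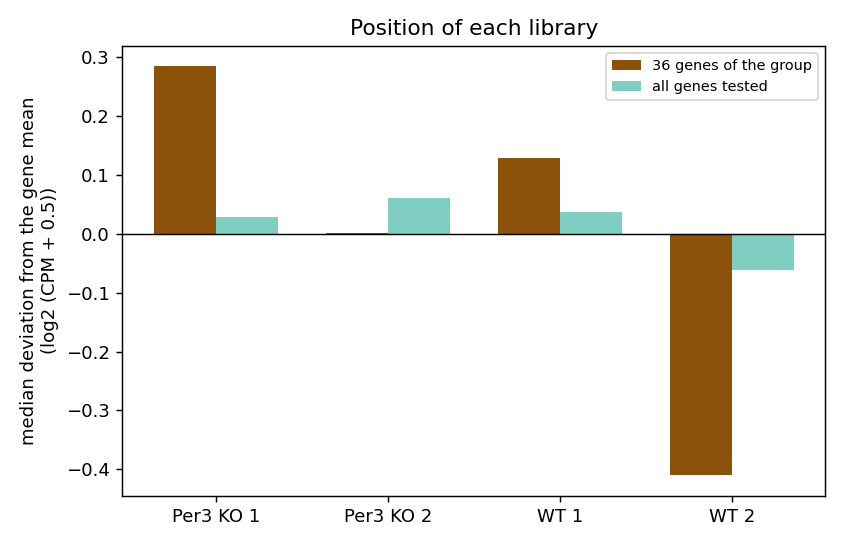
Median deviation of log2(CPM + 0.5) from each gene's mean over the 4 libraries, for the 36 genes tested and for all 12494 genes tested. The 36 genes are at -0.41 in WT 2, and Per3 KO 1, Per3 KO 2 and WT 1 are at or above 0.

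The same isozyme led in every library for hexokinase, phosphofructokinase, lactate dehydrogenase and both carrier pairs. By share of the family RPKM, Hk2 made 95.3% and 97.4% of hexokinase in KO-labelled libraries and 97.0% and 93.6% in WT libraries. Pfkp made 65.7% and 78.7% of phosphofructokinase against 70.1% and 71.4%, and Ldha 91.6% and 94.3% of lactate dehydrogenase against 92.3% and 85.9%. Slc2a1 made at least 96.6% of the 2 glucose carriers and Slc16a1 at least 89.1% of the 2 lactate carriers in every library. Among the PFKFB enzymes Pfkfb4 led in Per3 KO 1 and WT 1, and Pfkfb3 in Per3 KO 2 and WT 2. In the enolase family Gm5506 led in both KO-labelled libraries, Eno3 in WT 1 and Eno2 in WT 2. Gm5506 took 69.7% and 69.8% of the family RPKM in Per3 KO 1 and 2, against 1.00% and 0.491% in WT 1 and 2. Eno3 took 11.4% and 9.33% against 44.7% and 45.4%, and Eno2 5.54% and 7.62% against 21.3% and 49.7%. A share falls when another member of the family rises. The levels of Eno2 and Eno3 overlapped between groups, so their shares are not differences separate from the Gm5506 share. Pgam2 took 2.55% and 4.40% of mutase in KO-labelled libraries and 6.02% and 22.5% in WT libraries. With 2 libraries in each group the smallest two-sided p of an exact permutation test is 0.333, which these Gm5506, Eno2, Eno3 and Pgam2 shares had, so no share could pass.

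**Figure D5:**
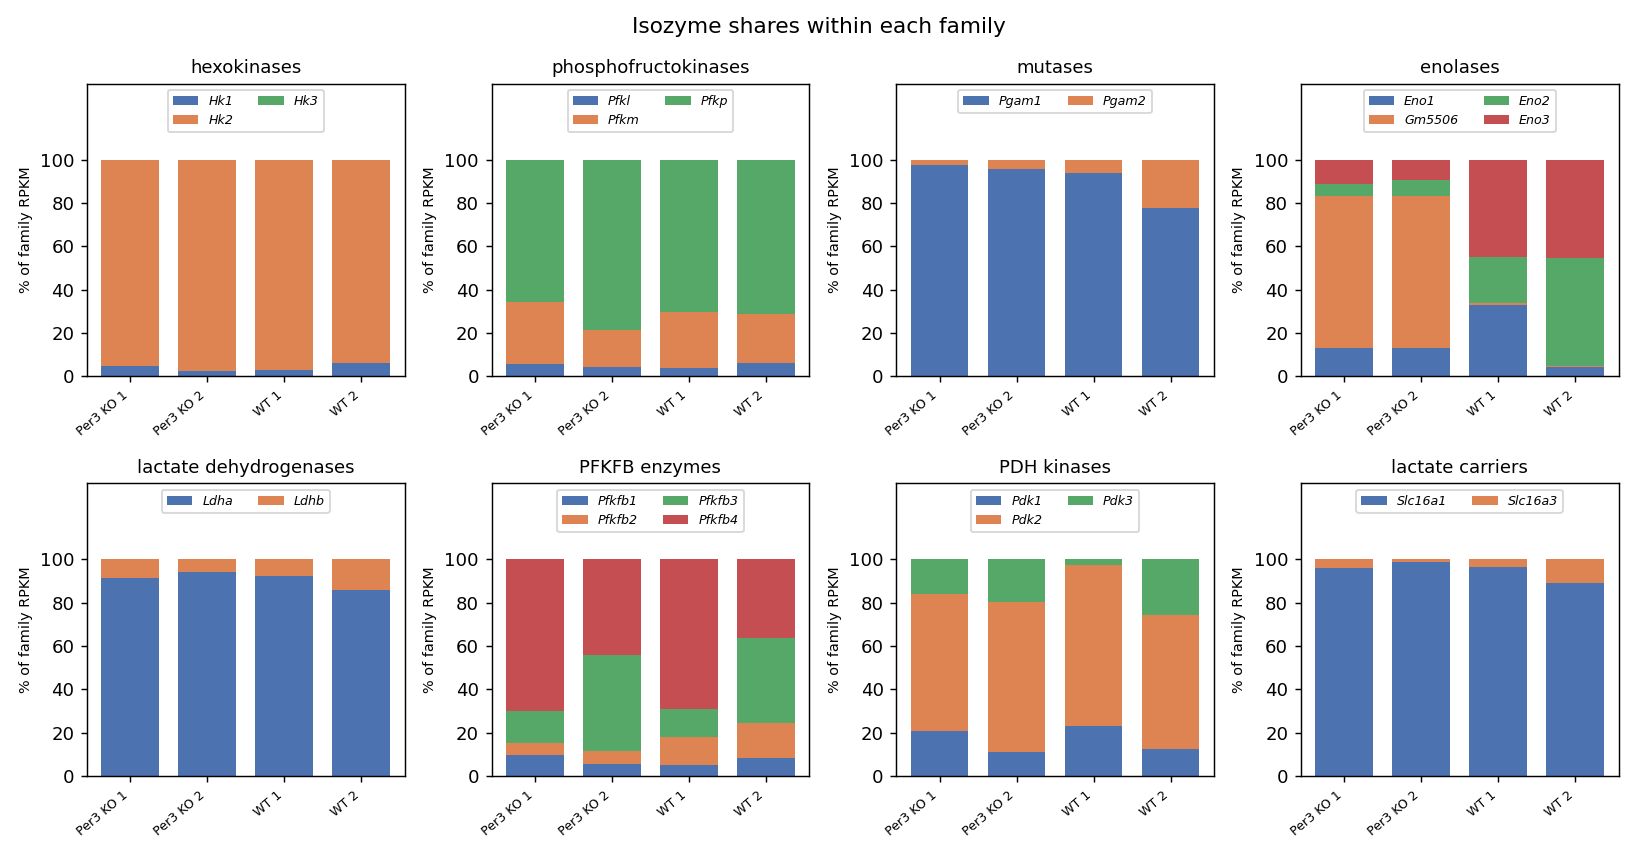
Share of each isozyme in the summed RPKM of its family, in percent, for 8 families in Per3 KO 1, Per3 KO 2, WT 1 and WT 2. The enolase panel is dominated by Gm5506 in the KO-labelled libraries (69.7% and 69.8%). It is shared by Eno1, Eno2 and Eno3 in WT 1 and is mostly Eno2 and Eno3 in WT 2, with Eno1 at 4.39%. The hexokinase panel is nearly all Hk2.

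Neighbouring pathways showed no called gene in edgeR. In the pentose phosphate branch 8 genes were tested, 4 with positive and 4 with negative log2 fold changes (median -0.07). Tkt, the transketolase, was at 321 and 249 CPM in KO-labelled libraries and at 232 and 86.7 CPM in WT libraries. Of 13 genes of glycogen and glucose phosphate metabolism 9 were positive (median 0.41), with Gys1, the muscle-type glycogen synthase, at 3.52 and 15.0 CPM against 3.29 and 5.80 CPM. Other glycolytic and gluconeogenic genes were positive in 12 of 14 tested (median 0.68). Of the 14, 5 lay above both WT libraries, against 14.6% of all genes tested, and 0 below, against 11.5%. Slc2a4, the insulin-responsive GLUT4, was at 2.61 and 6.23 CPM in KO-labelled libraries and at 0.574 and 0.215 CPM in WT libraries. Its log2 fold change was 3.47 ± 1.42 (SE), with an unadjusted p of 0.0423 and an edgeR adjusted p of 1.00. Gpd2, the mitochondrial glycerol phosphate dehydrogenase, had tight groups at 28.5 and 26.7 CPM against 14.0 and 14.2 CPM, a log2 fold change of 0.97 ± 0.51 (SE).

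For pyruvate entry into mitochondria, 3 of 7 genes tested were positive and 4 negative (median -0.01). Of the 7, 1 lay above both WT libraries and 1 below, against 14.6% and 11.5% of all genes tested. These were Dld and Dlat, partner subunits of pyruvate dehydrogenase. Their log2 fold changes were 0.74 ± 0.51 and -0.88 ± 0.62 (SE), and edgeR called neither. Dld was at 63.0 and 63.1 CPM in KO-labelled libraries and at 49.4 and 26.3 CPM in WT libraries, and Dlat at 11.0 and 6.69 CPM against 14.4 and 18.2 CPM. Among 11 genes of HIF control 3 were positive and 8 negative (median -0.24). Hif3a, a HIF family member that can restrain the others, had 21 and 47 reads in KO-labelled libraries and 0 in both WT libraries. The mean level in KO-labelled libraries was 5.56 times a floor of 3 reads per WT library. With a library left out this ratio ran from 4.47 to 7.36, and it leaves out counting error in the KO-labelled reads. The Hif3a log2 fold change was 7.67 ± 3.21 (SE), with an unadjusted p of 0.0516 in edgeR. The listed span of Hif3a differed between libraries. Of 20 other hypoxia-induced genes tested, 12 were positive and 8 negative (median 0.24). Of the 20, 2 lay above both WT libraries and 2 below, against 14.6% and 11.5% of all genes tested. Stc2, a secreted stanniocalcin, was at 3.11 and 0.439 CPM against 6.99 and 7.65 CPM. Mif, a cytokine gene, was at 144 and 67.6 CPM against 83.1 and 11.5 CPM. The medians of these lists stand beside 0.01 for all genes tested.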

How the data were processed

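The deposited tables, 1 per library, give each gene an estimated count, not normalised, per the file headers, and an RPKM column that the authors scaled by transcript length and library total. Between 8.85% and 12.0% of counts were not whole. The submitters' processing notes name mm9, STAR 2.4.0, Cufflinks and Cuffdiff 2.2.1, with no roles. The sources used here do not give annotation, strand or the treatment of multiply matching reads. Near-identical copies, overlapping genes (Pfkp with Pitrm1, Pdha1 with Map3k15) and antisense reads are therefore uncertain. Cells were lysed after the sort and cDNA was primed with oligo-dT, per the labels' protocols.

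Tables were joined by symbol and counts rounded. Genes passing filterByExpr of edgeR 4.0.16 (minimum count 10, minimum total 15) were scaled by TMM, with factors of 1.04 and 1.12 for Per3 KO 1 and 2 and 1.03 and 0.833 for WT 1 and 2, and compared with a two-sided quasi-likelihood test on genotype alone (glmQLFit, glmQLFTest, prior count 0.125, R 4.3.3). Benjamini-Hochberg adjusted p-values were held to 0.05. CPM divide rounded counts by TMM-scaled totals, and an SE is the log2 fold change over the square root of F. Alternatives were DESeq2 1.42.0, limma 3.58.1 on log2(RPKM + pseudocount) for a mean RPKM of at least 1, other factors and filters, a block for replicate number, and each library left out in turn. A crossed block was added after seeing the data. Fits were run on simulated counts with a dispersion (spread beyond counting error) of 0.05. In these data the square root of the common dispersion was 0.742, so the simulation does not show what the fits can detect here. The floor of 3 reads is 0.0411 to 0.129 CPM, and floors and intervals cover only counting error because no molecular identifiers are recorded for these reads. Counts of 5 or more digits were deposited to 4 significant digits.

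Members and gene lists were chosen with earlier results of these data known. Per-library values are given for members that lie apart, have an unadjusted p under 0.05 or lead their family, and for the rest where room allowed. Up to 3 genes per other list were taken by p. The markers Ptprc, Lyz2, Pecam1, Alb, Dlk1, Col1a1 and Ttn were named outside that rule. Copies are GENCODE M21 transcripts at 95% identity over at least 300 bases, found with blastn.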

Additional observations from a re-analysis of the deposited data

How the results depend on the processing

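With 2 libraries in each group, calls depended on the model. Over all genes, 0 were called by edgeR as reported, against 4 with no filter on low counts, 1 with a mean RPKM of at least 5, 14 by DESeq2, 1 by limma at each pseudocount, and 1 to 4 with a library left out. Members called were 0, against 1 in each of those fits, which was Gm5506. The summed Eno1 and Gm5506 passed with no filter (log2 fold change 3.82), in DESeq2 (3.81), with crossed pairing and without WT 1, with values of 2.90 to 7.12 when a library was left out. The labels share replicate numbers, and the differences of replicate 1 minus 2 in the KO-labelled and WT groups correlated at -0.154 over 12494 genes. This correlation rests on a single difference in each group, so it cannot decide whether the numbers pair the samples. With the replicate block edgeR called 1 gene over all and 1 member, and with crossed pairing, added after seeing the data, 2 genes and 1 member, with the enolase sum at 4.85.

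The median log2 fold change of members, 0.25 as reported, was 0.60 by limma with a pseudocount of 0.1 and ran from -0.051 to 0.72 with a library left out. Members above both WT libraries, 9 as reported, were 5 of 19 at a mean RPKM of at least 5 (26.3%, against 10.3% of all genes). They were 13 without Per3 KO 1 (34.2%, against 33.0% of all genes), 18 of 36 without Per3 KO 2 (against 27.5%), 23 without WT 1 (60.5%, against 39.5%) and 12 without WT 2 (31.6%, against 31.3%). Members below, 2 as reported, were 4 with RLE or upper-quartile factors (11.1%, against 12.3% and 11.7% of all genes), 1 at a mean RPKM of at least 5 (5.26%, against 9.62%) and 4 to 10 with a library left out (11.1% to 26.3%, against 23.6% to 35.1%). The Gm5506 share of enolase differed by 69.0 points in RPKM and 68.1 points in counts.

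Some signs turned positive. The RPKM in the limma fits had no TMM scaling, unlike the counts in edgeR, where WT 2 had the lowest TMM factor, 0.833. In limma at pseudocounts of 0.5, 0.1 and 1 the log2 differences were 0.26, 0.26 and 0.26 for Gapdh, 0.21, 0.25 and 0.18 for Eno2, 0.15, 0.16 and 0.15 for Ldhb, 0.44, 0.60 and 0.32 for Pfkfb4, 0.13, 0.14 and 0.11 for Pdk2, and 0.10, 0.11 and 0.10 for Pdhb. Hif1a was at 0.0028 and 0.0077 at 0.5 and 0.1. With no filter Gapdh was at 0.011 and Ldhb at 0.0030. Pfkfb4 was at 0.38 and Pdk3 at 0.96 with the replicate block, and at 0.37 and 0.95 with crossed pairing. The causes were not tested.

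With a library left out, log2 fold changes that changed sign ran from -0.40 to 2.52 for Slc2a1, -0.42 to 9.62 for Slc2a3, -0.074 to 0.76 for Hk1, -0.10 to 0.71 for Pfkm, -0.13 to 0.39 for Aldoa, -0.19 to 0.38 for Tpi1, -0.51 to 0.46 for Gapdh and -0.11 to 1.02 for Pgk1. They ran from -0.11 to 0.088 for Eno2, -0.47 to 0.93 for Eno3, -0.71 to 0.45 for Ldhb, -0.11 to 0.88 for Pfkfb1, -0.72 to 1.54 for Pfkfb3, -0.92 to 1.70 for Pfkfb4, -0.57 to 0.37 for Pdk2 and -1.18 to 3.26 for Pdk3. For Pdha1 they ran from -0.34 to 1.37, for Pdhb from -0.84 to 0.58, for Hif1a from -0.57 to 0.044 and for Egln1 from -1.03 to 0.18. The lone library is assumed there to vary like the other group.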

Other observations

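Processed copies of Gapdh were listed with reads. They are no members and were named after their values were seen. Gm12070, 99.9% identical to Gapdh over 1002 bases, was at 13.03 and 5.82 CPM in Per3 KO 1 and 2, against 7.33 and 6.88 CPM in WT 1 and 2. Gm5069, 95.5% identical over 1011 bases, was at 13.2 and 5.64 CPM in KO-labelled libraries and at 10.7 and 7.86 CPM in WT libraries. For both copies and for Gapdh, Per3 KO 1 was above Per3 KO 2, and the groups overlapped.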
